A study of Mus musculus with 10 samples.

Results

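The genes of major histocompatibility complex (MHC) class II presentation were followed across 10 Illumina Mouse-6 bead arrays of mouse brain. They were H2-Aa, H2-Ab1, H2-Eb1, Cd74, Ciita, H2-DMa and H2-DMb1, and every probe annotated to 1 of these 7 genes was taken, which gave 7 of 17671 named genes and 11 of the 46373 probes on the array. The genotypes were CD93 knockout (KO) and wild type (WT), both of the strain given as C57/Bl6 and both 10 weeks old. In each genotype 1 array held the ipsilateral hemisphere and 1 the contralateral hemisphere after middle cerebral artery occlusion (MCAo) of 60 min with reperfusion for 48 h, called here the 48 h protocol. A further pair of arrays held both hemispheres after MCAo of 30 min with reperfusion for 72 h, the 72 h protocol, and 1 array held untreated brain. MCAo closes the artery that feeds most of 1 hemisphere and is a model of stroke, so the ipsilateral side is the injured one. Occlusion length and reperfusion time differ together between the protocols and cannot be told apart.

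Each combination of genotype and condition had 1 array. The labels do not say if single or pooled animals were hybridised, if the hemispheres of a protocol were taken from 1 animal, or if the knockout covers all cells. Arrays of hemispheres that share an animal would not be independent. With no repeat of any combination, adjusted p-values rest on the scatter that remains between genotypes once conditions are accounted for, and precision is limited by having 10 arrays. Between 12811 and 16310 probes per array stood above background (detection p under 0.01), and 9352 genes were tested. Cd93 itself, the check of the genotype labels, had log2 intensities from 5.10 to 6.24 on the 5 KO arrays and from 6.17 to 8.66 on the 5 WT arrays, and it was lower in KO in each of the 5 conditions. Where its probe lies with respect to the deletion was not stated.

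MHC class II molecules carry peptides from endosomes to the surface of antigen-presenting cells, where CD4+ T cells read them. An alpha and a beta chain pair in the endoplasmic reticulum around the invariant chain, are sent to endosomes, lose the invariant chain to proteases and exchange its last fragment for peptides with the help of H2-DM. In the brain, class II is known as a mark of activated microglia, of macrophages at the brain's borders and of cells that enter from blood, and transcription of the class II genes depends on the coactivator encoded by Ciita.

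The regulatory stretch in front of class II genes is known for an X box, which binds the RFX complex, followed by a Y box, an inverted CCAAT motif which binds NF-Y. Promoter windows ran from 250 bases before to 50 bases after the gene start (RefSeq, GRCm38.p6). They were read for 4 of the 7 genes, namely H2-Aa, H2-Eb1, H2-DMb1 and, with 2 windows, H2-DMa. Windows of the remaining genes were not read, and whether they hold the arrangement described below was not tested. The 3 windows below are shown because they hold the same arrangement of letters, in capitals: TNGNAACT, a part of the X box, and ATTGG, the inverted CCAAT, with 20 to 40 bases between them on the same strand.
H2-Aa: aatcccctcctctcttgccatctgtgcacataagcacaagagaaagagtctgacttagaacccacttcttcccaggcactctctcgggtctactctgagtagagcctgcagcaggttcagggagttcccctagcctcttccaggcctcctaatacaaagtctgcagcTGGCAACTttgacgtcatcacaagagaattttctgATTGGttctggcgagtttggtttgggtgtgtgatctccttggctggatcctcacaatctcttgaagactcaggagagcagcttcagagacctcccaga
H2-Eb1: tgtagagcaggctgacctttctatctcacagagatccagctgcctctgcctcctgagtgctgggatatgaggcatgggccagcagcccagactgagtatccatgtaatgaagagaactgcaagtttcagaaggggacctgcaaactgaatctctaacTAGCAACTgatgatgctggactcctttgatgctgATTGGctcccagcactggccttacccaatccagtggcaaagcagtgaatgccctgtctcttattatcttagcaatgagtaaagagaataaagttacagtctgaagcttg
H2-DMb1: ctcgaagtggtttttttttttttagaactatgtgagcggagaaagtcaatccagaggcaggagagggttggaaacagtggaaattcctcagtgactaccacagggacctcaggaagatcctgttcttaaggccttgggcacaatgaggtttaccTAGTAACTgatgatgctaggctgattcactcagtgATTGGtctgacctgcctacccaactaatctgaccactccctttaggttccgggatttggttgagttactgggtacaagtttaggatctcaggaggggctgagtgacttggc

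The H2-Aa window lies at chr17:34287774-34288073 on the minus strand, the H2-Eb1 window at chr17:34305617-34305916 on the plus strand and the H2-DMb1 window at chr17:34152941-34153240 on the plus strand. The X letters begin 83 bases before the start of H2-Aa, 93 before that of H2-Eb1 and 96 before that of H2-DMb1. The gap between X and Y letters was 27 bases in H2-Aa, 26 in H2-Eb1 and 27 in H2-DMb1. Of all 32851 promoter windows of this length, 0.262% hold the arrangement on either strand, while 12.3% hold TNGNAACT alone and 37.4% hold ATTGG alone. The pattern was chosen after these windows had been read, so its presence in them is a description. Neither window of H2-DMa holds the arrangement.

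The classical chains come first. H2-Ab1 encodes the beta chain of the I-A molecule. Its brighter probe had log2 normalized intensities of 7.37 (KO) and 7.10 (WT) in the ipsilateral hemisphere of the 48 h protocol, against 5.46 (KO) and 5.56 (WT) in the contralateral hemisphere. After the 72 h protocol it had 8.30 (KO) and 7.90 (WT) in ipsilateral tissue, against 5.75 (KO) and 5.65 (WT) in contralateral tissue. Untreated brain gave 5.68 (KO) and 5.33 (WT). All 4 ipsilateral arrays lay above all 6 others, with a gap of 1.34 between the lowest ipsilateral and the highest other array, and the probe stood above background on the ipsilateral arrays only. The ipsilateral level was 3.3-fold the contralateral one under the 48 h protocol (log2 difference 1.72 ± 0.14, standard error (SE), 95% interval 1.41 to 2.03, limma adjusted p = 6.74e-05). The 72 h level was 5.26-fold (2.40 ± 0.14, 95% interval 2.09 to 2.70, limma adjusted p = 4.91e-06). Contralateral arrays were below background, and these folds allow for neither scatter nor other processing. In the authors' value table the differences were 1.28 and 1.85, and with no background correction 1.08 and 1.68.

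The second H2-Ab1 probe moved in the same way. It had 7.39 (KO) and 7.19 (WT) on the ipsilateral arrays of the 48 h protocol, against 5.58 (KO) and 5.34 (WT) on the contralateral ones. The 72 h values were 8.20 (KO) and 7.73 (WT) in ipsilateral tissue, against 5.38 (KO) and 5.83 (WT) in contralateral tissue. With every probe tested, its hemisphere difference was 1.83 ± 0.19 under the 48 h protocol (limma adjusted p = 0.000237) and 2.36 ± 0.19 under the 72 h protocol (limma adjusted p = 2.79e-05), so both probes of the gene passed in both protocols. The second probe was above background on 5 arrays, the ipsilateral ones and WT contralateral tissue of the 72 h protocol. It too met the detection filter through ipsilateral arrays, so its passing is a description.

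H2-Aa encodes the alpha chain that pairs with the H2-Ab1 product. Its single probe was not above background on any of the 10 arrays. The ipsilateral values were 4.91 (KO) and 4.68 (WT) under the 48 h protocol, against contralateral values of 4.46 (KO) and 4.44 (WT). Under the 72 h protocol they were 4.98 (KO) and 4.79 (WT), against 4.46 (KO) and 4.47 (WT), and untreated brain gave 4.57 (KO) and 4.54 (WT). The 4 ipsilateral values lay just above the 6 others, all within the range of background. The probe was outside the main test. With no detection filter its ipsilateral minus contralateral adjusted p was 0.046 under the 48 h protocol and 0.0286 under the 72 h protocol (limma), and no fold is given because both sides were below background.

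H2-Eb1 encodes the beta chain of the I-E molecule. Mice of the C57BL/6 haplotype do not make its partner, the H2-Ea chain, so that they show no I-E at the cell surface. The H2-Eb1 probe had 6.30 (KO) and 6.19 (WT) in ipsilateral tissue of the 48 h protocol, against 4.98 (KO) and 4.88 (WT) in contralateral tissue. Values of the 72 h protocol were 7.01 (KO) and 6.74 (WT) in ipsilateral tissue, against 4.91 (KO) and 5.35 (WT) in contralateral tissue, and untreated brain gave 5.10 (KO) and 5.33 (WT). It too stood above background on the 4 ipsilateral arrays only, and these did not overlap with the other 6. Ipsilateral H2-Eb1 signal was at least 2.24-fold the contralateral one under the 48 h protocol (log2 difference 1.32 ± 0.17, 95% interval 0.95 to 1.69, limma adjusted p = 6e-04). Under the 72 h protocol it was at least 3.16-fold (1.75 ± 0.17, 95% interval 1.38 to 2.12, limma adjusted p = 6.78e-05). These bounds allow for background alone. In the authors' value table the differences were 0.90 and 1.175. The H2-Ea probe was not above background on any array.

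Cd74 encodes the invariant chain, which holds newly made class II molecules until they reach endosomes. Its brighter probe had 7.55 (KO) and 7.43 (WT) in ipsilateral tissue of the 48 h protocol, against 6.05 (KO) and 5.27 (WT) in contralateral tissue. Under the 72 h protocol the values were 8.22 (KO) and 7.89 (WT), against 5.995 (KO) and 5.99 (WT), and untreated brain gave 6.42 (KO) and 5.82 (WT). The 4 ipsilateral arrays again lay above all others, by 1.003, and unlike H2-Ab1 and H2-Eb1 the probe was above background on 9 of 10 arrays, the exception being WT contralateral tissue of the 48 h protocol. Cd74 was higher in ipsilateral than in contralateral tissue by 1.82 ± 0.18 under the 48 h protocol (3.54-fold, limma adjusted p = 0.000144). The 72 h difference was 2.06 ± 0.18 (4.18-fold, limma adjusted p = 3.82e-05). A second Cd74 probe ran between 4.51 and 4.95 and was not above background on any array.

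The endosomal editor H2-DM is a pair of H2-DMa and H2-DMb1 products, and the probes of its chains differed in what they showed. The brighter H2-DMb1 probe had 6.56 (KO) and 6.67 (WT) in ipsilateral tissue of the 48 h protocol, against 6.23 (KO) and 5.93 (WT) in contralateral tissue. The 72 h arrays had 7.43 (KO) and 7.22 (WT) in ipsilateral tissue, against 6.65 (KO) and 6.27 (WT) in contralateral tissue, while untreated brain gave 6.15 (KO) and 6.002 (WT). Within each protocol the ipsilateral arrays were the higher ones, but KO contralateral tissue of the 72 h protocol lay above KO ipsilateral tissue of the 48 h protocol. H2-DMb1 was higher in ipsilateral tissue by 0.53 ± 0.13 under the 48 h protocol (1.45-fold, limma adjusted p = 0.021). The 72 h difference was 0.86 ± 0.13 (1.82-fold, limma adjusted p = 0.00167). The 48 h call was lost without the KO contralateral array (0.61, limma adjusted p = 0.0558), the WT ipsilateral array (0.35, limma adjusted p = 0.189) or the WT contralateral array (0.46, limma adjusted p = 0.14) of that protocol, and in the authors' value table (0.39, limma adjusted p = 0.0595).

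A dimmer H2-DMb1 probe stood above background on the 4 ipsilateral arrays only. It had 5.61 (KO) and 5.70 (WT) in ipsilateral tissue of the 48 h protocol, against 4.68 (KO) and 4.70 (WT) in contralateral tissue, and 6.31 (KO) and 6.07 (WT) in ipsilateral tissue of the 72 h protocol, against 5.04 (KO) and 5.07 (WT) in contralateral tissue. Its ipsilateral arrays did not overlap with the others. With every probe tested its limma adjusted p was 0.001 under the 48 h protocol and 0.000245 under the 72 h protocol. The dimmer probe entered that test through the ipsilateral arrays alone, so that it had to differ, and these values are a description. H2-DMb1 has a close copy in the genome, H2-DMb2, to which no probe was annotated, and whether the H2-DMb1 probes also bind its transcript was not tested.

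H2-DMa was above background on all 10 arrays. It had 7.34 (KO) and 7.47 (WT) in ipsilateral tissue of the 48 h protocol, against 7.47 (KO) and 7.53 (WT) in contralateral tissue. Under the 72 h protocol the values were 7.69 (KO) and 7.97 (WT), against 7.67 (KO) and 7.74 (WT), and untreated brain gave 7.83 (KO) and 7.36 (WT). Ipsilateral and other arrays overlapped over most of their range. The hemisphere difference of H2-DMa was -0.10 under the 48 h protocol (95% interval -0.46 to 0.27, limma adjusted p = 0.708) and 0.13 under the 72 h protocol (95% interval -0.23 to 0.50, limma adjusted p = 0.63). The 95% interval of H2-DMb1 ran from 0.24 to 0.83 under the 48 h protocol and from 0.57 to 1.16 under the 72 h protocol, and the difference between both genes was not tested.

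Ciita encodes the coactivator that class II promoters need. Neither of its 2 probes was above background on any array. The brighter one had 4.92 (KO) and 4.89 (WT) in ipsilateral tissue of the 48 h protocol, against 4.96 (KO) and 5.13 (WT) in contralateral tissue, and 4.98 (KO) and 4.84 (WT) under the 72 h protocol, against 4.86 (KO) and 5.09 (WT). The other probe ran from 4.45 to 4.55 over the 10 arrays. A change in Ciita was not detectable at this signal over background, which does not show that its level stayed the same.

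**Figure D1:**
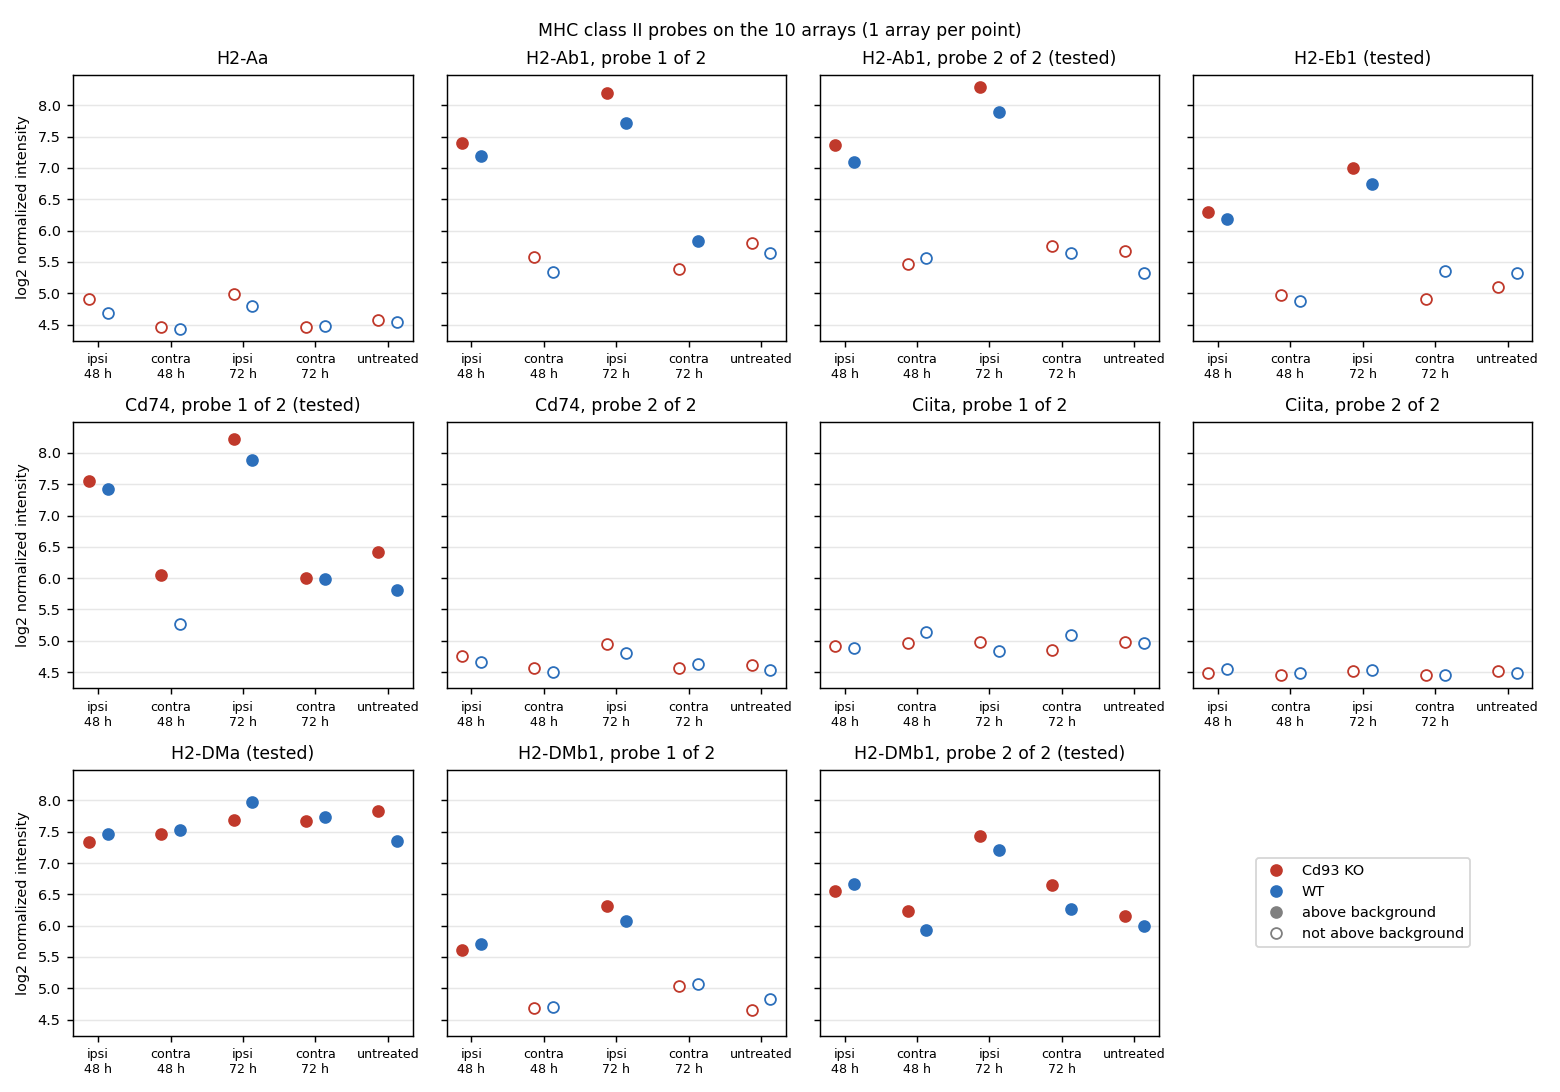
Log2 normalized intensity of the 11 class II probes on each of the 10 arrays, with KO in red and WT in blue, by hemisphere and protocol along the horizontal axis and untreated brain at the right. Filled points stood above background and open points did not, and the 4 ipsilateral arrays of H2-Ab1, H2-Eb1 and the brighter Cd74 probe lie above all 6 other arrays.

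Set side by side, 4 of the 5 tested genes were called higher in ipsilateral tissue under each protocol. Of all 9352 genes tested, 20.7% were called under the 48 h protocol and 12.7% were called higher, and under the 72 h protocol 14.4% were called and 10.3% were called higher. The 5 tested genes are those with a probe above background on at least 2 arrays. H2-Ab1 and H2-Eb1 entered through their ipsilateral arrays alone, so that they had to differ, and the count is therefore given as a description. Among all genes tested, ordered from the highest ipsilateral minus contralateral difference, Cd74 stood at place 69 under the 48 h protocol and 77 under the 72 h protocol. H2-Ab1 stood at 79 and 43 and H2-Eb1 at 176 and 131. H2-DMb1 stood at 940 and 487 and H2-DMa at 5613 and 2452. With arrays centred on their medians in place of quantile normalization, the median difference of all genes under the 48 h protocol moved to 0.43, and the share of called genes that were higher was 99.1%, against 61.1% in quantile-normalized values. Relative to that median H2-Ab1 differed by 1.80, Cd74 by 1.80, H2-Eb1 by 1.20, H2-DMb1 by 0.53 and H2-DMa by -0.03, where the unadjusted sign of H2-DMa turned (0.40). Under the 72 h protocol the share of called genes that were higher was 94.1% with centring, against 71.4%. The probes of 3 of the 5 tested genes had all 4 ipsilateral arrays above all 6 others, as had 11.6% of all genes tested.

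Every hemisphere difference of H2-Ab1, H2-Eb1, Cd74 and H2-DMb1 was positive in both genotypes under both protocols. For H2-Ab1 it was 1.91 in KO and 1.54 in WT under the 48 h protocol and 2.54 in KO and 2.25 in WT under the 72 h protocol. For H2-Eb1 it was 1.32 in KO and 1.31 in WT under the 48 h protocol, and 2.10 in KO and 1.39 in WT under the 72 h protocol. For Cd74 the WT difference was the larger one under the 48 h protocol, with 1.49 in KO and 2.15 in WT, and the smaller one under the 72 h protocol, with 2.22 in KO and 1.90 in WT. The WT value of the 48 h protocol rests on a contralateral array that was below background.

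**Figure D2:**
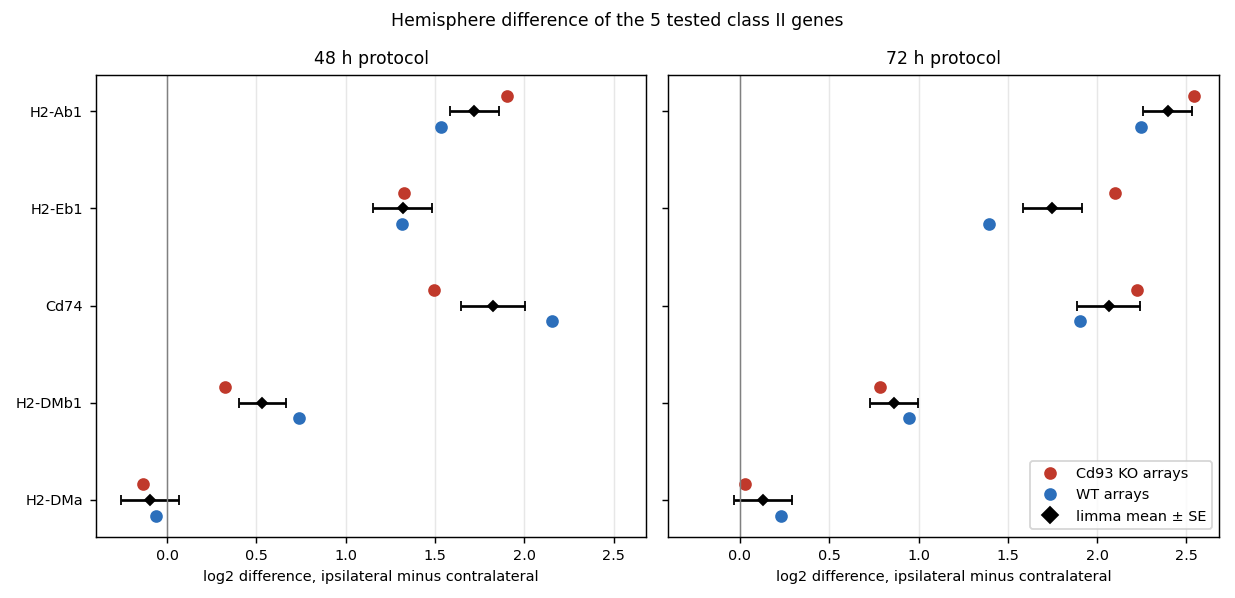
Log2 difference, ipsilateral minus contralateral, of the 5 tested class II genes under the 48 h protocol (left) and the 72 h protocol (right), with KO arrays in red, WT arrays in blue, and the mean ± SE of the limma model as diamonds. H2-Ab1, H2-Eb1, Cd74 and H2-DMb1 lie to the right of 0 in both genotypes and protocols, and H2-DMa lies near 0.

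The protocols were then compared within ipsilateral tissue, where 3.35% of all genes were called and 1.85% were called higher under the 72 h protocol. H2-Ab1 had 8.30 (KO) and 7.90 (WT) under the 72 h protocol, against 7.37 (KO) and 7.10 (WT) under the 48 h protocol, a difference of 0.86 ± 0.14 (1.82-fold, limma adjusted p = 0.0186). H2-DMb1 had 7.43 (KO) and 7.22 (WT), against 6.56 (KO) and 6.67 (WT), a difference of 0.71 ± 0.13 (1.63-fold, limma adjusted p = 0.0278). H2-Eb1 (0.63, 95% interval 0.26 to 0.99, limma adjusted p = 0.0673), Cd74 (0.57, 95% interval 0.17 to 0.97, limma adjusted p = 0.109) and H2-DMa (0.43, 95% interval 0.07 to 0.80, limma adjusted p = 0.166) did not pass, although all had higher values on both 72 h arrays than on the 48 h array of the same genotype. With centring the median of all genes was -0.26 and 4.94% of called genes were higher, against 55.3%. Both calls were lost without any 1 of the 4 ipsilateral arrays and under median centring, where H2-Ab1 differed by 0.39 (limma adjusted p = 0.147) and H2-DMb1 by 0.46 (limma adjusted p = 0.05). The second probe of H2-Ab1 (0.67, limma adjusted p = 0.0902) and of H2-DMb1 (0.53, limma adjusted p = 0.0619) did not pass either.

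Whether the hemisphere difference itself was larger under the 72 h protocol was tested with the interaction of hemisphere and protocol. No gene of the array passed in limma (0% called, with 1018 of 9352 genes at an unadjusted p under 0.05). The interaction was 0.67 for H2-Ab1 (95% interval 0.24 to 1.11, limma adjusted p = 0.251), 0.43 for H2-Eb1 (-0.09 to 0.95), 0.33 for H2-DMb1 (-0.09 to 0.75), 0.24 for Cd74 (-0.32 to 0.80) and 0.23 for H2-DMa (-0.29 to 0.74).

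Contralateral tissue was compared with untreated brain, and there 1.43% of all genes and 0 of the 5 class II genes were called by limma. At an unadjusted p under 0.05 there were 1452 genes, none of them a class II gene. The difference was -0.29 for Cd74 (95% interval -0.64 to 0.05), -0.19 for H2-Eb1 (-0.51 to 0.13), 0.01 for H2-DMa (-0.31 to 0.32), 0.11 for H2-Ab1 (-0.16 to 0.37) and 0.19 for H2-DMb1 (-0.06 to 0.45). The H2-Eb1 probe and the brighter H2-Ab1 probe were below background on both sides of this comparison, while the second H2-Ab1 probe was above background on 1 of the 6 arrays, WT contralateral tissue of the 72 h protocol.

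Loss of Cd93 was compared with wild type over the 5 matched conditions. Of all genes, 1.17% were called, and 0 of the 5 class II genes were. KO minus WT for Cd74 was 0.12 and 0.33 in ipsilateral tissue of the 48 h and 72 h protocols, 0.78 and 0.01 in contralateral tissue and 0.61 in untreated brain. The 0.78 rests on the WT contralateral array of the 48 h protocol, which was below background and also enters the mean. The mean difference of Cd74 was 0.37 (95% interval 0.12 to 0.62, limma unadjusted p = 0.00853, limma adjusted p = 0.15). That of H2-Ab1 was 0.21 (0.01 to 0.40, limma adjusted p = 0.254), that of H2-DMb1 0.18 (-0.00 to 0.37), that of H2-DMa -0.01 (-0.24 to 0.22) and that of H2-Eb1 -0.04 (-0.27 to 0.19). On the ipsilateral arrays of both protocols 3 of the 5 genes, H2-Ab1, H2-Eb1 and Cd74, were higher in KO, as were 27.7% of all genes.

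A genotype effect on the hemisphere difference was tested with a genotype-by-ipsilateral term, and no gene of the array passed (0% called by limma, with 359 genes at an unadjusted p under 0.05). KO minus WT, the difference of hemisphere differences was 0.38 for H2-Eb1 (95% interval -0.04 to 0.80), 0.22 for H2-Ab1 (-0.17 to 0.61), -0.23 for H2-DMb1 (-0.60 to 0.15), -0.24 for Cd74 (-0.76 to 0.28) and -0.32 for H2-DMa (-0.76 to 0.13). These intervals leave room for genotype effects of either sign.

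The rest of the pathway was read from lists of its parts. The list of endosomal processing holds enzymes that act on antigens and the invariant chain, and cathepsin inhibitors. It had the most tested genes and also the most called ones. Of 12 with a probe 10 were tested, and 9 were called higher in ipsilateral tissue under each protocol, with a median difference of 0.97 under the 48 h protocol and 1.58 under the 72 h protocol, against -0.02 and -0.06 over all genes tested, of which 12.7% and 10.3% were called higher. Ifi30, the thiol reductase that opens disulphide bonds of antigens, had 8.82 (KO) and 8.88 (WT) in ipsilateral tissue of the 48 h protocol, against 7.32 (KO) and 6.61 (WT) in contralateral tissue. Under the 72 h protocol it had 9.84 (KO) and 9.34 (WT), against 7.08 (KO) and 6.62 (WT), and it was higher in ipsilateral tissue by 1.89 ± 0.17 (limma adjusted p = 9.73e-05) and 2.74 ± 0.17 (limma adjusted p = 6.34e-06). In untreated brain Ifi30 gave 6.20 (KO) and 5.98 (WT), and it was the 1 enzyme called higher in contralateral than in untreated tissue (0.82 ± 0.15, limma adjusted p = 0.0344), where 1.2% of all genes were called higher. The 134 genes called in that comparison became 5 with no detection filter, and the Ifi30 call was not followed under other processing. A second, dimmer Ifi30 probe gave 5.54 to 5.79 on contralateral arrays, against 5.29 (KO) and 5.26 (WT) in untreated brain.

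Cathepsin S (Ctss), the protease that removes the last part of the invariant chain in most antigen-presenting cells, stood above background on the ipsilateral arrays only and, like H2-Ab1 and H2-Eb1, was tested through them alone, so that it had to differ. It had 6.65 (KO) and 6.18 (WT) in ipsilateral tissue of the 48 h protocol, against 5.37 (KO) and 4.93 (WT) in contralateral tissue, which is at least 2.23-fold (limma adjusted p = 0.000614). Cathepsin C (Ctsc), which trims other proteases into their active form, was higher by 1.67 ± 0.12 under the 48 h protocol and by 2.21 ± 0.12 under the 72 h protocol. The other proteases called in both protocols, Ctsb, Ctsd, Ctsh, Ctsz, Lgmn and Sppl2a, were higher by 0.76 to 1.14 under the 48 h protocol and by 0.73 to 2.02 under the 72 h protocol. Within ipsilateral tissue Ctsd, Ctsh, Ctsz and Ifi30 were called higher under the 72 h than under the 48 h protocol, by 0.91, 1.14, 1.07 and 0.74. Cst3, which encodes the cathepsin inhibitor cystatin C, did not pass in either protocol (0.20 and 0.01).

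Transcription and signalling genes showed fewer calls. Of the promoter factors 5 of 8 were tested and none was called between hemispheres. Nfya, a subunit of NF-Y, was lower in KO than in WT over the 5 conditions (-0.44 ± 0.08, limma adjusted p = 0.0411), where 0.631% of all genes were called lower. Its values were 7.14 (KO) and 7.38 (WT) in ipsilateral tissue of the 48 h protocol, 6.94 (KO) and 7.28 (WT) in that of the 72 h protocol, 6.68 (KO) and 7.10 (WT) in contralateral tissue of the 48 h protocol, 6.57 (KO) and 7.31 (WT) in that of the 72 h protocol, and 6.63 (KO) and 7.08 (WT) in untreated brain.

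Interferon gamma is the known inducer of Ciita in macrophages and microglia. Its gene Ifng was not above background on any array. Among 6 tested genes of its signalling, the receptor gene Ifngr1 was called higher under the 72 h protocol (0.75 ± 0.16, limma adjusted p = 0.0103) and did not pass under the 48 h protocol (0.31 ± 0.16). The target gene Irf1 was called higher under both (0.96 ± 0.13, limma adjusted p = 0.00111, and 0.62 ± 0.13, limma adjusted p = 0.0119), and the other 4 genes were not called.

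Among class II relatives, H2-Oa, H2-Ea and H2-Eb2 were not above background on any array. H2-Ob, a chain of the inhibitor of H2-DM, was not above background on any ipsilateral array, and it passed the filter only through contralateral and untreated arrays. It had 5.31 (KO) and 5.21 (WT) in ipsilateral tissue of the 48 h protocol, against 5.98 (KO) and 6.03 (WT) in contralateral tissue, which is at least 1.67-fold higher in contralateral tissue (limma adjusted p = 0.0139). The probe entered the test through the arrays where it was brighter, so this call is a description. Of all genes 8.06% were called lower under that protocol. The 72 h values of H2-Ob were 5.59 (KO) and 5.60 (WT), against 6.02 (KO) and 5.70 (WT), and its difference was -0.26 ± 0.17 under the 72 h protocol (limma adjusted p = 0.333). A second H2-Ob probe was not above background on any array. The genes of surface turnover, 3 with a probe, were not called.

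Of 6 costimulation genes with a probe 3 were tested, of which 2 were called higher under each protocol. Cd86, which gives T cells the second signal through CD28, was higher by 0.89 ± 0.12 under the 48 h protocol and 1.17 ± 0.12 under the 72 h protocol. Cd274, the inhibitory ligand PD-L1, was higher by 1.18 ± 0.15 and 1.06 ± 0.15. Cd80, the other CD28 ligand, was called lower under the 48 h protocol (-0.37 ± 0.12, limma adjusted p = 0.0496), a call lost with every probe tested (limma adjusted p = 0.0594), and its 72 h difference was -0.13 ± 0.12 (limma adjusted p = 0.482). Cd44, the partner through which CD74 signals, was higher by 2.47 ± 0.19 under the 48 h protocol (limma adjusted p = 5.86e-05), with 8.36 (KO) and 8.04 (WT) against 5.84 (KO) and 5.62 (WT), the last of these below background. The 72 h difference of Cd44 was 2.46 ± 0.19 (5.49-fold), with both contralateral arrays below background. These values come from 1 of 10 Cd44 probes, and the other 9 were not above background on any array. The probe met the detection filter through ipsilateral arrays, so its calls are a description.

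**Figure D3:**
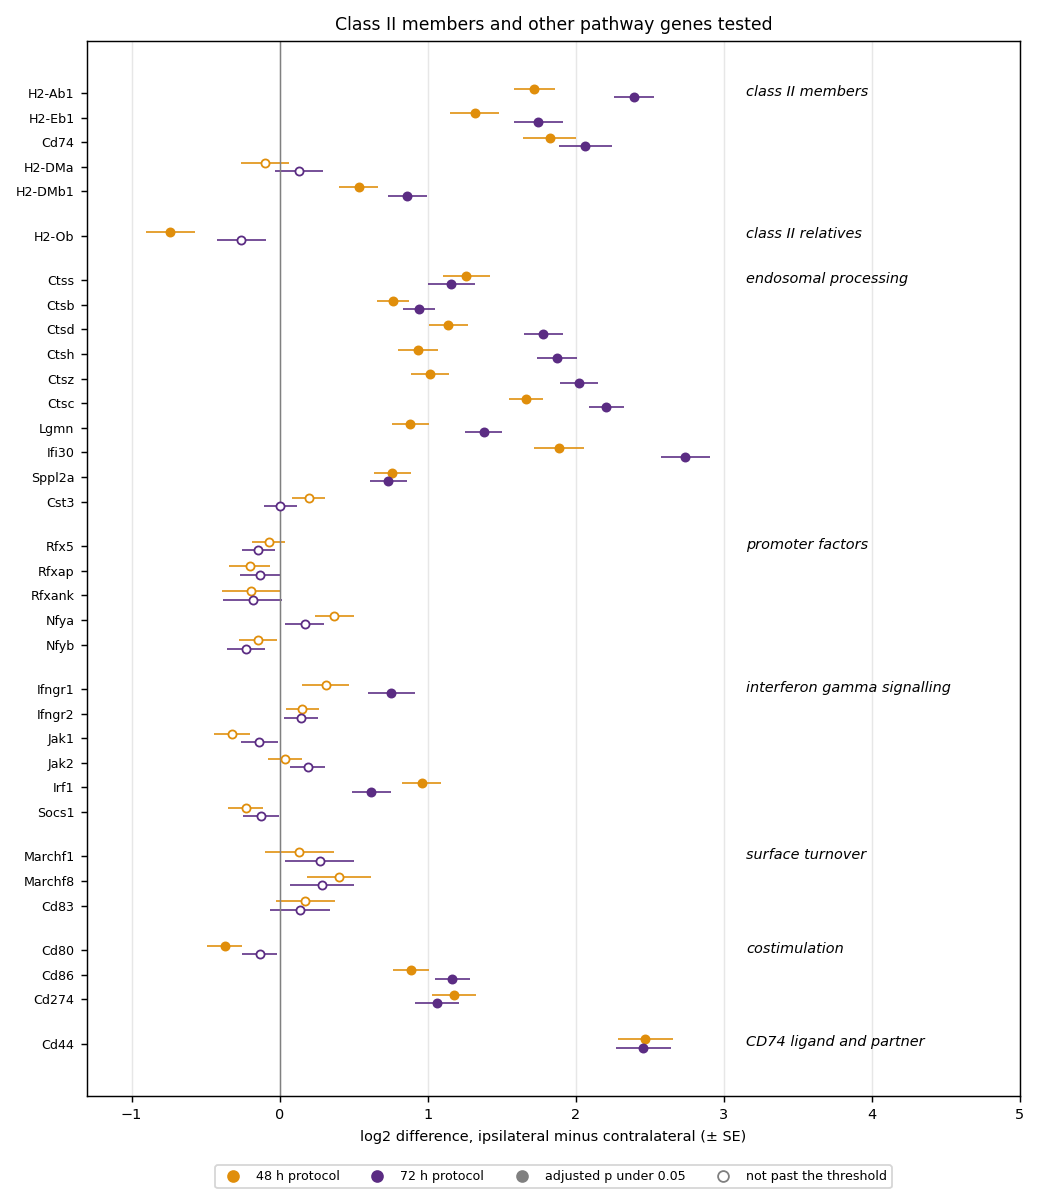
Log2 difference, ipsilateral minus contralateral, with the SE of the limma model, of the 5 tested class II genes and the tested genes of 7 pathway lists under the 48 h protocol (orange) and the 72 h protocol (purple). Filled points passed an adjusted p of 0.05, which holds for 9 of 10 endosomal processing genes in each protocol and for none of the 5 promoter factors.

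Brain holds several cell types that can carry class II, and in RNA of whole tissue more cells of a type and more RNA per cell cannot be told apart. Marker levels were summed per list on the linear scale of normalized intensity. The microglia list (7 genes with a probe) summed to 2962 to 5995 on the ipsilateral arrays, against 1340 to 1596 on the other 6, while P2ry12, a defining gene of resting microglia, was not above background on any array. Fcrls made up 41.9% to 72.3% of that sum, and without it the other 6 genes summed to 1052 to 1660, against 751 to 829. Of 6 tested microglia genes 3 were called higher under the 48 h protocol and 4 under the 72 h protocol. Sall1 (-0.15) and Siglech (-0.31) had negative differences under the 48 h protocol that did not pass. The sums without Fcrls or Zbtb46 were added after the values were seen. The list of blood monocytes and macrophages (5 genes) summed to 2930 to 5002, against 836 to 1594, but its defining genes Ccr2 and Plac8 were not above background on any array, and its member Ly6c1 is also a gene of brain endothelium. Most of that sum came from Lyz2 (log2 10.155 to 11.40 on ipsilateral arrays) and Ly6c1 (10.28 to 11.07), against Ms4a7 at 5.23 to 6.71. Lyz2 was read from 1 of 3 probes, and the others were not above background on any array. Border macrophage genes (5) summed to 364 to 508, against 164 to 216, and endothelial genes (5) to 3177 to 5832, against 2164 to 2733.

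Most markers of B cells, dendritic cells and T cells were at background. None of the 5 B cell genes with a probe was above background on any array. Of 8 dendritic cell genes 6 were at background on all arrays, and the sums of the list overlapped, with 446 to 510 on ipsilateral arrays and 415 to 582 on the others. Zbtb46, the 1 tested gene of that list, was above background on all 10 arrays and made up 55.3% to 69.4% of the sum, with hemisphere differences of -0.05 under both protocols that did not pass (limma adjusted p = 0.79 and 0.789). Without it the dendritic sums were 183 to 199 on ipsilateral arrays, against 178 to 192 on the others. Of 7 T cell genes 6 were at background on all arrays, the exception being Lag3. Neutrophil genes summed to 179 to 788 on ipsilateral arrays, against 99 to 333, astrocyte genes to 21992 to 24438, against 16431 to 18878, neuronal genes to 29803 to 33180, against 35594 to 38751, and oligodendrocyte genes to 21515 to 22488, against 18674 to 21725. Of 5 tested astrocyte genes 2 were called higher under each protocol, Gfap (1.61 and 1.46) and Aqp4 (0.79 and 1.07). Slc1a3, Aldoc and Gja1 were not called. The part of each cell type in the class II result was not tested.

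**Figure D4:**
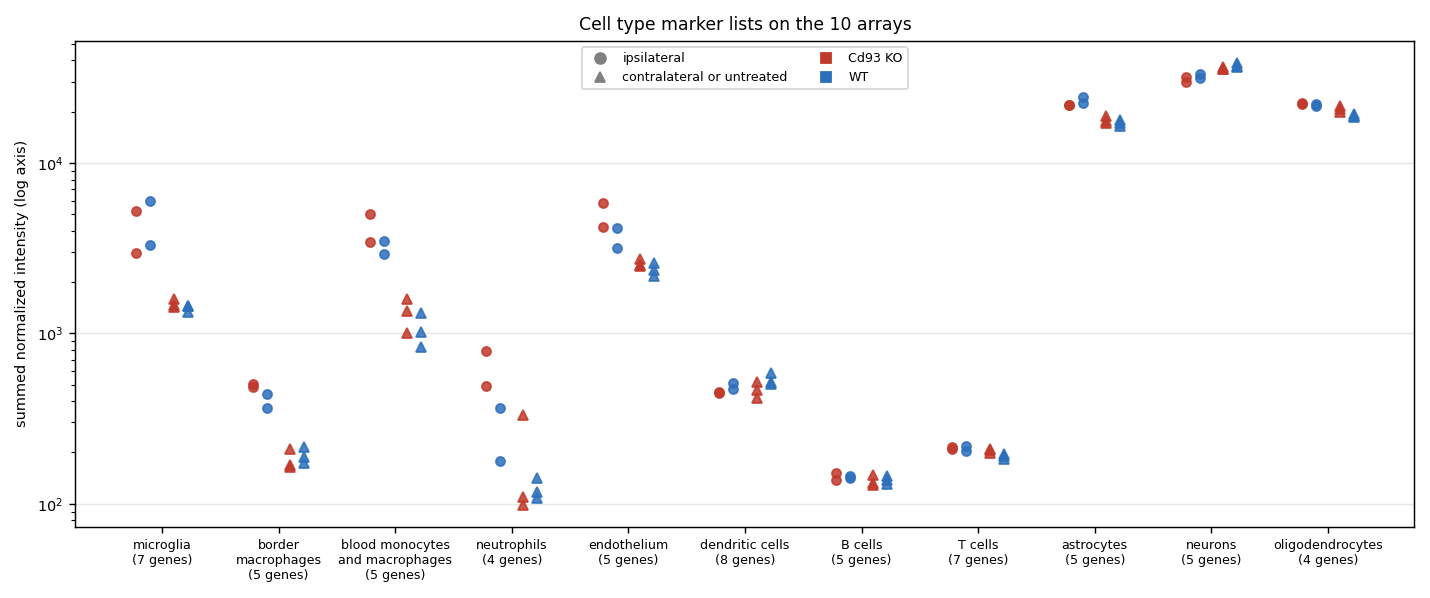
Summed normalized intensity (log axis) of 11 cell type marker lists on the 10 arrays, with circles for ipsilateral arrays, triangles for contralateral and untreated ones, KO in red and WT in blue. The ipsilateral sums of microglia, border macrophages, blood monocytes and macrophages, endothelium and astrocytes lie above all other arrays. Those of neurons lie below all other arrays, and those of the remaining lists, dendritic cells among them, overlap with the other arrays.

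The genes whose pattern over the 10 arrays was most like that of Cd74 and H2-DMa, the class II genes with the highest mean log2 level, were sought by the root mean square difference of log2 levels, each gene centred on its own mean. For Cd74 they were Bst2, Cd63, Lgals9, Trf and Oas1g, with differences of 0.24 to 0.27 against a median of 0.996 over all genes. For H2-DMa they were Bmp4, Osgep, Ankrd37, H2bc12 and E2f1, with 0.08 to 0.10 against a median of 0.27. Between class II genes the same measure was 0.30 for Cd74 and H2-Ab1, 0.33 for Cd74 and H2-Eb1, and 0.38 for H2-Eb1 and H2-Ab1. It was 0.43 for H2-DMb1 and H2-DMa and 1.04 for H2-Ab1 and H2-DMa. These values describe 10 arrays that share conditions, and carry no test.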

How the data were processed

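Total RNA of mouse brain was measured on 10 one-colour Illumina Mouse-6 bead arrays. The deposited table holds, per array and probe, the mean bead intensity, not normalized, and a detection value that equals 1 minus the detection p-value, as the values in the deposited table show by rising with intensity. The authors' own value table, of normalized intensity on a linear scale as deposited, was put on the log2 scale and used as an alternative. The authors' software and settings are not given in the sources used here.

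In limma 3.58.1 under R 4.3.3, the normexp method removed background with parameters inferred from detection p-values, after which 16 was added and the arrays were brought to a common distribution by quantiles and put on the log2 scale. A probe was kept if 2 or more arrays gave it a detection p below 0.01. Of 46373 probes, 29800 had 1 gene symbol, 10 several and 16563 none, and 29746 matched RefSeq. The brightest probe stood for a gene, which left 9352 genes. An additive model of condition and genotype over all arrays (4 residual degrees of freedom) was tested with moderated statistics, with Benjamini-Hochberg adjustment over all genes and a threshold of 0.05. On simulated data with 9352 genes, a log2 change of 1 was recovered for 98% of changed genes under the 48 h protocol and 100% under the 72 h protocol, and one of 0.5 for 38% and 50%. The simulation changed 50 genes per size and drew independent normal noise from the fitted variances, with 10 and 9 false calls. It therefore does not cover arrays that share an animal, or a larger share of changed genes. A bound "at least N-fold" sets the ipsilateral mean against, per contralateral array, the higher of the lowest level above background and the level of the probe itself. Such a bound allows for background alone, not for scatter between arrays or for other processing.

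Every class II probe is given. Of the pathway lists, genes past the threshold in a hemisphere comparison and at most 8 others are named, and the most alike genes are the 5 closest to each of the 2 class II genes with the highest mean level. Nfya and Ifi30 in the genotype and contralateral comparisons were singled out after their values were seen. The class II genes and all lists were chosen with earlier results of these data known. Replicates are absent within a genotype and condition, so KO and WT arrays served as the samples of a condition. Alternatives were the background correction, the normalization, the detection filter, the choice of probe, the authors' table, the model and leaving out each array.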

Additional observations from a re-analysis of the deposited data

How the results depend on the processing

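H2-Ab1, Cd74 and H2-Eb1 stayed called higher in ipsilateral tissue under both protocols without any 1 of the 10 arrays. The tested genes were those chosen on all 10 arrays, which H2-Ab1 and H2-Eb1 entered through ipsilateral arrays alone. For these genes the stability is therefore a description. With all arrays in turn left out, 3 to 4 class II genes were called under the 48 h protocol, 4 under the 72 h protocol and 0 to 3 between protocols in ipsilateral tissue. Requiring detection on all 10 arrays left H2-DMb1 and H2-DMa testable, with 1 gene called under each protocol and 1 between protocols. Between protocols, 4 were called with no background correction, 0 with median centring and 1 with no detection filter. H2-DMb1 was the 1 gene called by the authors' values in contralateral against untreated tissue (0.34, limma adjusted p = 0.0271), but values of different array pairs there share no scale. The sign turned with median centring for H2-DMa (0.40, 48 h hemisphere difference, and -0.117, protocol interaction), H2-Ab1 (-0.10, contralateral minus untreated) and Cd74 (-0.001, protocol interaction). In the authors' table it turned for Cd74 (0.011, contralateral minus untreated) and H2-Eb1 (0.015, KO minus WT), and H2-DMa was 0 there (KO minus WT). With 1 array left out, H2-DMa ranged from -0.033 to 0.30 (72 h hemisphere difference), -0.29 to 0.31 (contralateral minus untreated) and -0.14 to 0.051 (KO minus WT), H2-Eb1 from -0.12 to 0.061 (KO minus WT) and Cd74 from -0.018 to 0.50 (protocol interaction). The cause was not tested. Over all genes, the 48 h count of 1939 was 4925 with median centring, 1267 in the authors' table, 3273 from the 4 arrays of that protocol alone and 585 to 2024 with 1 array left out. The 72 h count of 1348 was 582 to 1368. Between protocols 313 became 555 with no background correction, 1719 with centring, 156 with no filter, 555 with a trended prior and 1 to 313 with 1 array left out. Contralateral against untreated, 134 became 4269 in the authors' table, 5 with no filter, 214 with a trended prior and 3 to 90. KO against WT, 109 became 207 with no background correction, 69 with no filter, 224 with a trended prior, 29 with genotype alone and 44 to 136. The protocol interaction called 7 with no background correction, 3 in the authors' table, 1 with detection on all 10, 3 with every probe, 6 with a trended prior, 1 with the block and 0 to 4; the genotype interaction called 3 in the authors' table and 0 to 4. The labels carry no replicate numbers, and a paired fit with genotype and protocol as a block (8 arrays) changed no class II call. Signal over background limits H2-Aa and Ciita, whose changes could not be measured, and the H2-Eb1 probe and brighter H2-Ab1 probe, whose contralateral levels are bounds.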
